A study of Xenopus laevis with 3 samples.

Results

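The DNA repair genes described here are 77 gene rows of 34694, from 67 gene symbols, in poly-A RNA of whole testis from Xenopus laevis, the African clawed frog. They were chosen by a rule on symbols, with earlier results of these data known. The rule took the Fanconi anaemia (fanc), RAD, XRCC, ERCC, BRCA and PARP families, DNA ligases, mismatch repair genes, exo1, atm, atr, nbn and mre11. The 3 libraries form a single group. Each is labelled as a male of an outcrossed laboratory stock, left untreated, each with a processing date of its own, and they are called the replicate 1, 2 and 3 libraries. No label says that the animals were separate or how old they were. The p-values given below set the ratio between copies of a gene against the variation of that ratio over these libraries. That variation was estimated with information shared over all tested pairs, and the p-values speak for these samples alone.

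DNA repair is split among pathways that each act on a kind of damage. Nucleotide excision repair cuts out bulky lesions such as those made by ultraviolet light, mismatch repair corrects copying errors, and poly(ADP-ribose) polymerases (PARPs) mark broken strands for single-strand break repair. Broken chromosomes are rejoined by end joining or copied from an intact partner by homologous recombination, and the Fanconi anaemia pathway opens crosslinks between strands. In the testis of vertebrates, germ cells break their own chromosomes at meiosis and mend them by recombination with enzymes that other dividing cells use too and with some made for meiosis alone.

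Most DNA repair genes had a row for only 1 of the copies that this allotetraploid species can carry. Its L and S chromosomes come from different ancestors, and copies of a gene on them are called homeologs, written with the endings .L and .S. Of the 67 symbols, 10 had both an L and an S row, 49 had L only, 7 had S only and parp14 had neither ending. Both copies were thus present for 14.9% of DNA repair symbols, against 53.0% of the 14652 named symbols in the table. Where 1 copy was present it was L for 87.5% of DNA repair symbols (49 of 56), against 73.6% of all such symbols (4913 of 6675).

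Single copies ran through nearly every pathway. No symbol had both copies among 6 checkpoint genes, 9 Fanconi anaemia genes, 4 end joining genes and 6 mismatch repair genes. Among the pairs were rad50, rad23b, xrcc1, parp2, rad54l2, parp6, parp8, parp11 and parp12, so that 5 of the 10 carried a PARP name. The S-only genes were fancg, rad52, xrcc2, ercc8, pms1, exo1 and parp10. Among 133 other repair and recombination genes with a row, which lie outside the families named above, 31 (23.3%) had both copies. These included 10 of 20 further genes of checkpoint and break signalling and 4 of 10 of the Fanconi anaemia pathway. For mismatch repair it was 2 of 10 and for end joining 0 of 10, so the shares differed between pathways and between gene lists of a pathway. These counts rest on the table's symbols. A further 12269 rows (35.4%) carry a locus identifier without a gene name, and a second copy among them would not have been found.

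**Figure D1:**
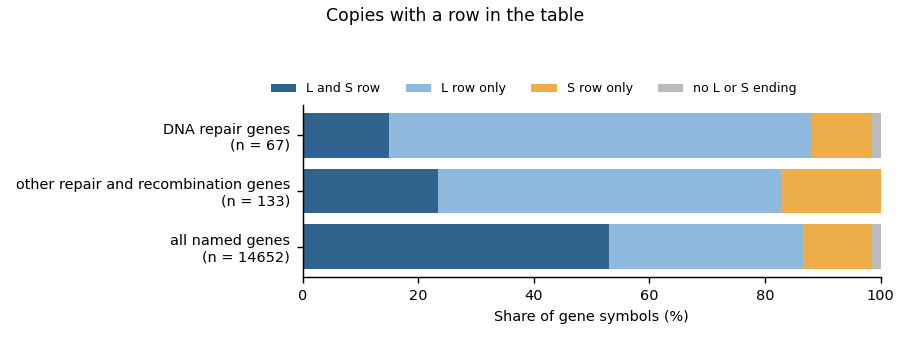
Share of gene symbols (horizontal axis, percent) with an L and an S row, an L row only, an S row only or neither ending, for DNA repair genes, other repair and recombination genes, and all named genes. Both copies had a row for 14.9%, 23.3% and 53.0% of symbols.

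Nearly all DNA repair rows were expressed. A row was called detected with at least 0.5 CPM (counts per 1000000, scaled between libraries) and over 3 counts in all 3 libraries. That held for 75 of 77 rows, against 66.7% of all rows and 81.6% of rows with a gene name. The exceptions were parp9.L, whose counts were 1528 in replicate 1, 0 in replicate 2 and 588 in replicate 3, and parp8.S, whose counts were 12, 48 and 21. Levels between genes are given as the authors' TPM, which is scaled to gene length and library size. The median level over all 77 rows was 13.1 TPM, and over the 75 detected ones 14.1 TPM. Over the 23153 rows detected in the table it was 9.72 TPM. Over the 18300 detected rows with a gene name, which all 77 rows have, it was 12.2 TPM. Of the 77 rows, 61.0% reached 10 TPM, as did 49.2% of all detected rows, with or without a gene name. In the RefSeq gene order, 11 of the 77 rows overlap the span of another row, and the strand setting of the counting is not given, so reads from overlapping genes cannot be told apart. The overlapping row was the higher for rad9b.L (115 TPM), fancl.L (57.1 TPM), exo1.S (47.2 TPM) and parp9.L (12.1 TPM). Library totals were 70580016, 68378714 and 61212304 counts. The germ cell marker dazl.L, at 1181 ± 133 TPM, and the meiotic recombinase dmc1.L, at 109 ± 5.22 (SD, n = 3), were abundant in this tissue. Both are among the highest rows of their gene lists. The list of spermatogonia markers that holds dazl.L had a median of 0.943 TPM.

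**Figure D2:**
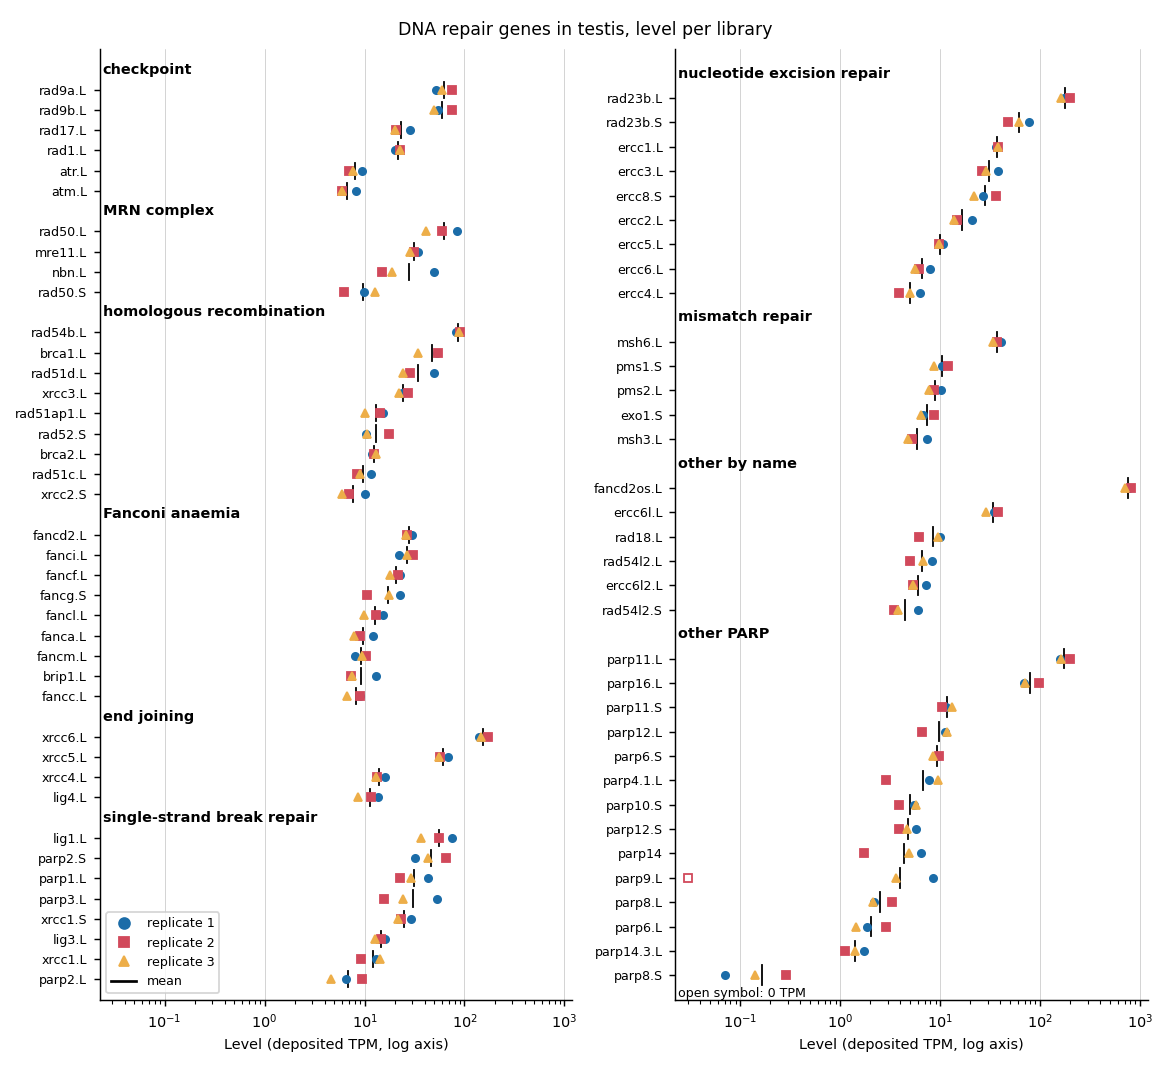
Deposited TPM (horizontal log axis) of 74 DNA repair rows in the replicate 1, 2 and 3 libraries, grouped by pathway, with black bars at the mean. The row fancd2os.L stands highest at 764 TPM, 62 of the 74 rows lie between 5 and 100 TPM, and parp9.L is at 0 in replicate 2 (open symbol).

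Genes that sense damage differed widely in level. Here and below, ranks are among the 77 rows chosen by symbol, and partners outside them follow at the end. By TPM, the kinases that start the checkpoint were the lowest of the 6 checkpoint rows. As CPM, which is not per length, atr.L at 60.3 and atm.L at 58.0 were above rad17.L at 44.1 and rad1.L at 19.3. The row atr.L was at 8.05 ± 1.32 TPM and atm.L at 6.73 ± 1.32 (SD, n = 3 here and throughout). Among all detected rows of the table these kinases stood nearer the middle, at percentiles 45.2 and 41.2 by mean TPM. The ring-shaped clamp that activates ATR is built from RAD9, RAD1 and HUS1, and its RAD9 subunits were the highest of the 6 checkpoint rows. For rad9a.L the replicate 1, 2 and 3 libraries gave 51.3, 75.3 and 59.7 TPM, a mean of 62.1 ± 12.2. The related rad9b.L, a paralog known in mammals for expression in testis, gave 54.4, 75.2 and 49.8 TPM, a mean of 59.8 ± 13.5. These subunits did not differ beyond their spread, at 0.06 ± 0.18 for the log2 ratio of rad9a to rad9b. In contrast, rad9a exceeded rad1.L, at 21.9 ± 1.43 TPM, by 1.49 ± 0.21 on the log2 scale in 3 of 3 libraries. The clamp loader gene rad17.L stood at 23.2 ± 4.81 TPM. Such ratios between genes carry no test, since an exact sign-flip test over 3 libraries cannot go below p = 0.25.

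The MRN complex, which holds broken ends and begins their trimming, had unequal subunits. Its nuclease gene mre11.L was steady at 33.9, 31.0 and 28.5 TPM, again in the order of replicates 1, 2 and 3. The tether gene rad50.L gave 84.5, 60.1 and 41.5 TPM, highest in replicate 1 and lowest in replicate 3. Its homeolog rad50.S gave 9.91, 6.20 and 12.7 TPM, which is highest in replicate 3, so the copies did not follow each other. The third subunit, nbn.L, gave 49.8, 14.9 and 18.6 TPM. Replicate 1 stood apart for nbn.L, and as a result mre11 was below nbn in replicate 1 and above it in the other libraries. Summed over copies, rad50 exceeded mre11 by 1.17 ± 0.28 on the log2 scale in 3 of 3 libraries.

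Of the 11 homologous recombination rows the highest was rad54b.L, which encodes an ATPase that acts on DNA during strand exchange. It gave 82.0, 90.2 and 87.6 TPM, a mean of 86.6 ± 4.17, and so varied little between libraries. The tumour suppressor gene brca1.L gave 53.5, 54.6 and 33.9 TPM, lowest in replicate 3. A second tumour suppressor gene of this pathway, brca2.L, gave 11.9, 12.5 and 13.1 TPM, again with little variation. The gap between brca1 and brca2 was 1.89 ± 0.45 on the log2 scale, with brca1 above in 3 of 3 libraries.

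Genes of the accessory complexes that assist strand exchange were not at a common level. Highest was rad51d.L, with 49.3, 28.6 and 24.5 TPM, a value in replicate 1 well above the others. It exceeded its direct partner xrcc2.S, at 7.74 ± 2.20 TPM, by 2.11 ± 0.14 on the log2 scale. The row xrcc3.L stood at 24.4 ± 2.58 TPM and that of its partner, rad51c.L, at 9.69 ± 1.69, and rad51c was below xrcc3 in 3 of 3 libraries. Of the accessory genes, rad51ap1.L was at 13.1 ± 2.70 TPM. The annealing protein gene rad52.S gave 10.4, 17.7 and 10.6 TPM, highest in replicate 2. No row was matched for rad54l or rad51b, which were not analysed here.

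Of the 9 Fanconi anaemia rows chosen by symbol, the gene pair whose products form the clamp at a crosslink had the highest means. The row fancd2.L gave 30.1, 26.8 and 25.8 TPM and fanci.L gave 22.3, 30.2 and 26.6. Their log2 ratio was 0.07 ± 0.32, so they did not differ beyond their spread. By mean, genes of the core complex that ubiquitinates this clamp were lower. They ran from fancf.L at 20.8 ± 2.61 TPM through fancg.S at 16.99 ± 6.17 to fancl.L, the ubiquitin ligase, at 12.8 ± 2.71. Then came fanca.L at 9.70 ± 2.20 and fancc.L at 8.21 ± 1.38. In replicate 1, however, fancf.L and fancg.S, at 22.8 and 22.7 TPM, were above fanci.L. The DNA translocase gene fancm.L was at 9.30 ± 1.18 TPM. The helicase gene brip1.L, a partner of BRCA1, was at 9.26 ± 3.29 TPM, with its highest value in replicate 1. All 9 of these rows were detected, beside 81.6% of all rows with a gene name, and their means lay between 8.21 and 27.6 TPM.

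The 4 end joining rows were led by the genes of the end-binding protein Ku. For the Ku70 gene xrcc6.L the replicate 1, 2 and 3 libraries gave 139, 173 and 145 TPM. For the Ku80 gene xrcc5.L they gave 68.9, 56.4 and 55.9 TPM. The Ku subunits pair as equals in the protein, while the xrcc6 row exceeded the xrcc5 row by 1.34 ± 0.30 on the log2 scale, or 2.52-fold, in 3 of 3 libraries. The sealing enzyme lig4.L, at 11.2 ± 2.45 TPM, and its scaffold xrcc4.L, at 14.1 ± 1.66, were far lower.

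Of the 8 rows of single-strand break repair, lig1.L, which encodes a ligase that joins DNA fragments at replication and in excision repair, had the highest mean. It gave 74.5, 55.1 and 36.7 TPM in the replicate 1, 2 and 3 libraries, and so varied about as much between libraries as rad50.L. It exceeded lig3.L, at 14.5 ± 1.75 TPM, by 1.88 ± 0.34 on the log2 scale in 3 of 3 libraries. The break sensor parp1.L gave 43.2, 22.8 and 28.85 TPM, highest in replicate 1. Its relative parp2.S gave 32.4, 64.8 and 43.15 TPM, highest in replicate 2, so which of these PARPs was the higher differed between libraries. The parp2.S row was above lig1.L in replicates 2 and 3, and without replicate 1 the mean of parp2.S was 53.98 TPM against 45.9 for lig1.L. The third DNA-dependent PARP, parp3.L, gave 52.7, 15.6 and 24.1 TPM. The scaffold gene xrcc1 was represented by xrcc1.S at 24.7 ± 3.94 TPM and xrcc1.L at 12.2 ± 2.59.

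Nucleotide excision repair held the second highest of the 77 rows. The gene rad23b encodes a partner of the damage sensor XPC that also carries ubiquitinated proteins to the proteasome. Its L copy gave 174, 198 and 164 TPM and its S copy 76.9, 47.6 and 61.5 in the replicate 1, 2 and 3 libraries. Of the enzymes that open and cut the strand, ercc1.L was steady at 36.2, 38.1 and 38.0 TPM. The nuclease partner of ERCC1, ercc4.L, stood at 5.04 ± 1.21 TPM, and ercc1 exceeded it by 2.92 ± 0.39 on the log2 scale, or 7.58-fold, in 3 of 3 libraries. The helicase genes ercc3.L and ercc2.L were at 31.0 ± 5.86 and 16.5 ± 3.76 TPM, and the nuclease gene ercc5.L at 10.02 ± 0.573. Of the genes that link repair to transcription, ercc8.S, at 28.4 ± 7.54 TPM, was above ercc6.L, at 6.60 ± 1.23, in 3 of 3 libraries.

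Mismatch repair showed a large gap between genes of mismatch recognition. The gene for the subunit that reads single mismatches, msh6.L, was at 37.4 ± 3.50 TPM. That for the subunit that reads larger loops, msh3.L, was at 5.83 ± 1.41 TPM, and msh6 exceeded it by 2.70 ± 0.21 on the log2 scale, or 6.52-fold, in 3 of 3 libraries. The later-acting genes pms1.S, pms2.L and the exonuclease gene exo1.S were at 10.4 ± 1.66, 8.91 ± 1.33 and 7.32 ± 1.22 TPM.

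Some rows share a family name with repair genes without being core members of a pathway. The highest DNA repair row by name, fancd2os.L, was named in human for lying opposite FANCD2, and no repair role is claimed for it here. It gave 781, 812 and 699.6 TPM in the replicate 1, 2 and 3 libraries. In the RefSeq gene order it is the next row after fancd2.L without overlapping it. In TPM it exceeded fancd2 by 4.79 ± 0.12 on the log2 scale, or 27.7-fold, in 3 of 3 libraries. Much of that gap comes from the gene lengths, 522 bases for fancd2os.L and 4338 for fancd2.L. As CPM, which is not per length, their means were 378 and 113. The mitotic translocase gene ercc6l.L was at 33.7 ± 4.77 TPM, the related ercc6l2.L at 5.98 ± 1.06, the ubiquitin ligase gene rad18.L, which acts at stalled forks, at 8.55 ± 2.07, and rad54l2.L and rad54l2.S at 6.65 ± 1.61 and 4.43 ± 1.35.

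The remaining PARP genes, many of which act outside DNA repair, ranged from rows that were not detected to abundant ones. Of these 14 rows, 12 were detected, beside 81.6% of all rows with a gene name. Most abundant was parp11.L, with 159.6, 199 and 161 TPM, an enzyme of the nuclear envelope known in mouse for a role in shaping the sperm head. Next was parp16.L, a membrane protein of the endoplasmic reticulum, with 69.4, 97.7 and 70.9 TPM. Both were highest in replicate 2. The other detected rows of this group lay between parp14.3.L at 1.42 ± 0.297 TPM and parp11.S at 11.7 ± 1.37, among them parp12.L at 9.85 ± 2.80, parp6.S at 9.22 ± 0.675 and parp10.S at 5.01 ± 1.02. The names parp14 and parp14.3.L point to related copies of a gene, between which reads could have been split when they were counted.

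In 9 of the 10 DNA repair genes with both copies, the copies differed in level. The L and S counts were compared within each library, per base of gene length. The test was the quasi-likelihood test of edgeR, with the Benjamini-Hochberg adjustment taken over the 6627 pairs of the table that had enough counts. It called 61.1% of all pairs, 34.4% with L higher and 26.7% with S higher. Of the 10 DNA repair pairs, 6 had L higher and 3 had S higher. The median size of the log2 ratio was 1.89 over the 10 pairs and 0.92 over all pairs, and 5 of the 10 differed over 4-fold, against 21.1% of all pairs.

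The widest gaps were in PARP genes and in rad50. The L copy of parp8 led by 4.08 in log2 units (SE 0.413, adjusted p = 0.00112, edgeR), though its S copy had only 12, 48 and 21 counts. In parp11, L was higher by 3.89 (SE 0.183, adjusted p = 0.000342, edgeR), so that 93.7% of its level came from L. For rad50, the per-library log2 ratios were 3.09, 3.28 and 1.70, all in favour of L and smallest in replicate 3, and the fitted value was 2.70 (SE 0.352, adjusted p = 0.00237, edgeR). The S copy led in parp2, with a log2 ratio of L to S of -2.77 (SE 0.218, adjusted p = 0.000661, edgeR), in parp6, with -2.23 (SE 0.244, adjusted p = 0.00142, edgeR), and in the scaffold gene xrcc1, with -1.03 (SE 0.194, adjusted p = 0.00787, edgeR). In rad23b the L copy was higher, by 1.55 (SE 0.197, adjusted p = 0.00222, edgeR).

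The remaining pairs had smaller ratios. For parp12, L was higher by 1.02 (SE 0.197, adjusted p = 0.0084, edgeR), and without replicate 3 the ratio was 0.87 (adjusted p = 0.0552, edgeR). For rad54l2, L was higher by 0.60 (SE 0.161, adjusted p = 0.0253, edgeR). That call was lost without replicate 1 (0.67, adjusted p = 0.0624, edgeR), without replicate 2 (0.64, adjusted p = 0.0666, edgeR), without replicate 3 (0.49, adjusted p = 0.157, edgeR) and without the library block (0.59, adjusted p = 0.0646, edgeR). It was also lost when L and S columns were scaled separately, which moved the median log2 ratio of all pairs from 0.15 to 0.01 (0.45, adjusted p = 0.0557, edgeR). In all 9 called pairs the 3 libraries shared a direction. How reads matching both copies were counted is not given in the sources used here, so ratios of near-identical copies are uncertain.

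**Figure D3:**
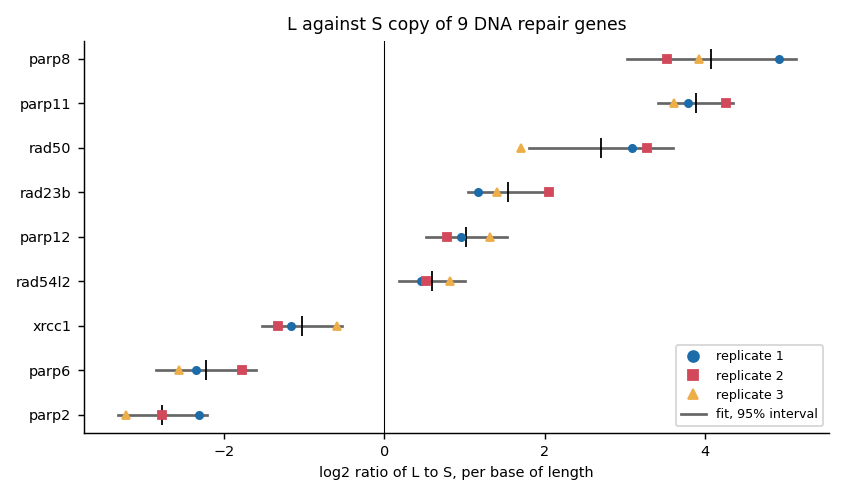
The log2 ratio of L to S per base of length (horizontal axis) for the 9 DNA repair genes whose copies differed, with symbols for the replicate 1, 2 and 3 libraries and a grey bar for the fitted ratio with its 95% interval. The intervals of 6 genes lie above 0 and those of 3 below 0.

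Between libraries, DNA repair rows more often had their lowest value in replicate 3 than detected rows at large. The median ratio of highest to lowest CPM was 1.40 over the 75 detected DNA repair rows and 1.49 over all detected rows. With rows of a mean CPM of at least 5 alone, it was 1.40 and 1.41. Of the 75, 8 (10.7%) differed 2-fold or more, against 21.2% of all detected rows and 18.1% of those with a gene name. These 2-fold shares were not matched for level, and median CPM was 32.9 over the 75 rows and 14.5 over all detected rows. Replicate 3 was the lowest library for 31 of the 75 (41.3%), against 27.8% of all detected rows, and the highest for 8 (10.7%), against 28.6%. On deposited TPM these shares were 50.7% against 34.0% and 10.7% against 21.6%. Over the 75 rows the median log2 ratio of CPM was 0.13 for replicate 1 over replicate 3. For replicate 2 over replicate 3 it was 0.14. Over all detected rows these medians were -0.002 and -0.008. Over the lists of other repair and recombination genes they ranged from -0.09 to 0.19 and from 0.06 to 0.24. Rows of the same library are not independent, each library has its own processing date, and library and date cannot be told apart, so no test was made.

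Markers of somatic cells differed between the same libraries. Summed CPM was 579, 1056.5 and 1781 for the 6 Leydig cell rows and 209, 575 and 1368 for the 8 smooth muscle rows in the replicate 1, 2 and 3 libraries. For the 7 leukocyte rows it was 65.5, 60.6 and 389.7, but these rows did not move together, since mpo.S was at 2.14, 1.49 and 131 TPM and spi1.L at 15.3, 18.2 and 6.71. The 19 rows of proliferating cells differed little, at 1625, 1730 and 1660.0 CPM, and the 15 spermatid rows gave 3559, 4846 and 4514. Sums over the other marker lists were 2542, 2414 and 2317 for spermatogonia (10 of 15 rows detected), 897, 809.7 and 1144 for Sertoli cells, 94.7, 77.1 and 82.0 for endothelial cells and 54.6, 52.8 and 29.2 for erythrocytes (4 of 7 detected). In the spermatogonia list, dazl.L at 1181 TPM and ddx4.L at 397 TPM stood highest, while the median row was at 0.943 TPM. The rows lin28a.L, lin28a.S, nanos3.L, nanos3.S and sall4.S of that list were not detected, so its sum does not stand for all its markers. No marker row was at 0 in all 3 libraries, and marker symbols without a row were not analysed. The part of these cells in the level of DNA repair genes was not tested, and in whole tissue fewer cells of a type and less RNA per cell cannot be told apart.

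The widest differences among detected DNA repair rows were again in PARP genes and in nbn. Replicate 2 was lowest for parp4.1.L, at 29.5, 12.4 and 40.9 CPM in the replicate 1, 2 and 3 libraries, a 3.29-fold range. It was lowest too for parp14, at 31.0, 9.56 and 26.7 CPM, and for parp3.L, at 75.4, 25.5 and 38.7. For nbn.L the values were 99.3, 33.9 and 41.8 CPM, with replicate 1 well above the others. Both copies of parp2 were highest in replicate 2, parp2.S at 62.9, 143 and 94.2 CPM and parp2.L at 12.9, 21.2 and 10.3. The remaining rows that differed 2-fold or more were rad50.S, highest in replicate 3, and parp6.L, highest in replicate 2. At the other end, ercc5.L and fancd2.L differed by 1.03-fold and 1.05-fold between their highest and lowest libraries.

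**Figure D4:**
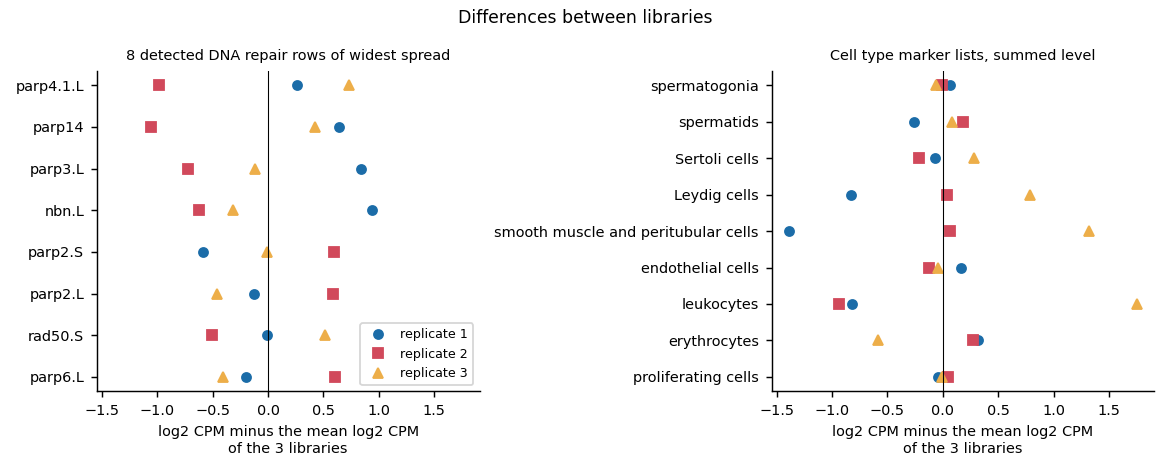
Difference from the mean over the 3 libraries (horizontal axis, log2 CPM) for the 8 detected DNA repair rows of widest spread (left) and for the summed level of each cell type marker list (right), with a symbol per library. Replicate 2 is lowest for parp4.1.L, parp14, parp3.L, nbn.L and rad50.S, while the Leydig cell and smooth muscle sums are lowest in replicate 1 and highest in replicate 3.

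One DNA repair gene was without counts in a single library. In human, PARP9 is known as a partner of the ubiquitin ligase DTX3L in the response to interferon and to DNA damage. The row parp9.L had 20.3 CPM in replicate 1, 9.82 in replicate 3 and 0 counts in replicate 2. Against the 3 counts that a count of 0 allows in that library, it was at least 442-fold higher in replicate 1 and at least 214-fold higher in replicate 3. Rows with 0 counts in replicate 2 and at least 200 in both other libraries numbered 2 of 18137, and the same rule gave 2 of 17809 rows for replicate 1 and 3 of 17957 for replicate 3. No other DNA repair row met it.

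The rows on both sides of parp9.L were low in the same library. These neighbours, taken from the order of the RefSeq gene table for the assembly Xenopus_laevis_v10.1, were looked at after the value of parp9.L was seen. The next row, dtx3l.L, whose span overlaps that of parp9.L, had 3734, 23 and 1087 counts in the replicate 1, 2 and 3 libraries. In CPM it was 141-fold higher in replicate 1 and 51.6-fold higher in replicate 3 than in replicate 2. The row before, faim.L, named for an apoptosis inhibitor, had 1202, 55 and 442 counts, or 19.0-fold and 8.77-fold more CPM. Farther out the rows differed. On one side hacd2.L was highest in replicate 2, with 1353, 2540 and 1464 counts. Past hacd2.L, cep70.L differed little, at 34.1, 34.8 and 32.8 CPM, and esyt3.L was lowest in replicate 2, at 7.56, 3.56 and 4.47 CPM. On the other side, LOC108701241 was still lowest in replicate 2, with 267, 65 and 273 counts, and LOC108701242 had 900, 484 and 669. Beyond these, LOC108701243 was highest in replicate 2, with 3163, 4288 and 2237 counts, and LOC108701824 differed little, at 5.10, 4.01 and 4.46 CPM. The row parp14, which follows them on the same chromosome, had 2339, 625 and 1598 counts. The row after parp14, LOC108701244, was also lowest in replicate 2, with 715, 195 and 608 counts. The rows low in replicate 2 thus did not form an unbroken stretch from parp9.L to parp14, since LOC108701243 between them was highest in that library. With 1 library per processing date, the difference has no replicate check, and its cause was not tested.

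**Figure D5:**
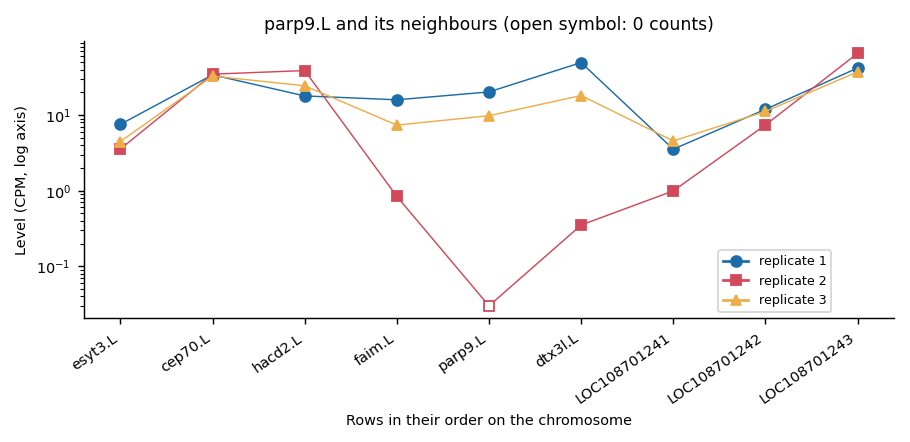
Level in CPM (vertical log axis) of parp9.L and the 4 rows on either side of it, in their order on the chromosome, in the replicate 1, 2 and 3 libraries. In replicate 2, parp9.L is at 0 counts (open symbol) and faim.L and dtx3l.L are below 1 CPM, while the other libraries have over 7 CPM for all 3 rows.

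Partners of the DNA repair genes were nearly all expressed too. Of 161 further genes of repair and meiotic recombination, 133 had a row, and 159 of their 164 rows were detected, at a median of 26.3 TPM over all 164. Of all rows with a gene name, 81.6% were detected, and the median over the detected ones was 12.2 TPM. By list, which share some genes, detected rows numbered 30 of 31 for partners in recombination, 14 of 14 for the Fanconi anaemia pathway, 29 of 30 for checkpoint and break signalling, 9 of 10 for end joining, 25 of 25 for base excision, 17 of 18 for nucleotide excision, 12 of 12 for mismatch repair, 16 of 16 for translesion synthesis and 13 of 14 for meiotic recombination. List medians ran from 9.14 TPM for end joining to 76.2 TPM for meiotic recombination. Of the 32 genes listed for meiotic recombination only 13 had a row, so its values cover a part of that list.

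The partners given with a level here were taken from the highest rows of their lists, so their high levels follow from that choice. Of these, faap24.L and chek1.L are set against a member they work with. Medians of partners and of rows chosen by symbol differed in both directions. For end joining they were 9.14 TPM for partners and 37.2 TPM for rows chosen by symbol, and for mismatch repair 57.7 and 9.68 TPM. The row faap24.L, whose product binds DNA together with FANCM, was at 485 ± 71.8 TPM, against 9.30 ± 1.18 for fancm.L. The polymerase clamp rows pcna.S and pcna.L were at 226 ± 17.3 and 123 ± 8.91 TPM. In meiotic recombination, sycp3.L, of the synaptonemal complex, was at 258 ± 46.1 TPM. The checkpoint kinase gene chek1.L, at 96.9 ± 2.31 TPM, likewise stood far above atr.L, the gene of the kinase that activates it. The rows not detected in all libraries were dntt.L, h2ax.L, mnat1.S, rpa3.S and spo11.S.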

How the data were processed

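Poly-A RNA of whole testis was sequenced in 3 libraries. The authors deposited whole-number counts per gene, the gene length and TPM, per the file headers. Alignment was with HISAT2 and counting with featureCounts, per the submitters' processing notes; the sources used here give no version, genome build or strand setting, nor how reads with several matches were handled. Deposited TPM is the count per gene length scaled to a total of 1000000, per the file headers. Of 77 member lengths, 69 are multiples of 3, so lengths were read as coding length. Columns were assigned by the processing date in their header.

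Members were found by symbol after removing a final .L or .S, with the full stop that ends the written rule read as punctuation, so that mre11.L is included. The members and lists were chosen with earlier results of these data known. CPM used edgeR 4.0.16 TMM factors (1.07, 0.956 and 0.979). Given per library in the text are the 12 rows of highest TPM, rows not detected and the 6 of widest spread. Called pairs are given by their fitted ratio, and their ratios per library are drawn in a figure. Further members were named whatever their values, and of each partner list up to 4 detected rows of highest mean TPM. Counts and medians cover all members, of which some are not reported here. Pairs needed a summed CPM of at least 1 in all libraries, and edgeR's quasi-likelihood test ran over all pairs, blocked by library and offset by length, with a threshold of 0.05 on the adjusted p. The SE is the absolute log2 ratio divided by the square root of F, an approximation. The procedure was also run on simulated counts, drawn separately for L and S without reads shared between copies, and no result given here rests on that run. Alternatives used DESeq2 1.42.0, limma 3.58.1, other filters and scalings, and each library left out. Of 34694 rows, 34693 matched the RefSeq table of Xenopus_laevis_v10.1, used for names and gene order only. Limits from a count of 0 cover counting error only.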

Additional observations from a re-analysis of the deposited data

How the results depend on the processing

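The median level of the 77 DNA repair rows, 13.1 TPM, ranged from 13.1 to 14.6 TPM when each library was left out, and as CPM, which is not per length, it was 32.8. The median ratio of highest to lowest library, 1.40, was 1.46 on deposited TPM and 1.39 with DESeq2 size factors; with each library left out it ranged from 1.17 to 1.27, since 2 libraries span less than 3. Under all 11 alternatives the called DNA repair pairs numbered from 7 (without replicate 3) to 9 of 10, with S higher in 3 throughout. With no replicate block, 8 pairs were called, 5 with L higher, the pair lost being rad54l2. At a summed CPM of at least 5, parp8 was no longer tested. Ratios between genes, where leaving out libraries was added after seeing the data, ranged from -0.11 (without replicate 1) to 0.19 for fancd2 to fanci and from -0.041 (without replicate 3) to 0.13 for rad9a to rad9b. Detected DNA repair rows numbered 75 or 76 under all 7 alternatives. Rows near 1 CPM, such as parp8.S, are limited by depth.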
